A study of Mus musculus with 28 samples.

Results

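The estrogen receptors, the estrogen-related receptors and classic targets of the estrogen receptor were followed as 9 genes, namely *Esr1*, *Esr2*, *Gper1*, *Esrra*, *Esrrb*, *Esrrg*, *Pgr*, *Greb1* and *Nrip1*. They were picked by symbol and matched to Ensembl identifiers, and all 9 were found among the 55359 identifiers shared by both count tables. RNA-seq was performed on the tibialis anterior (TA), a fast muscle of the lower leg, of 28 C57BL/6N mice aged 8 weeks, in 7 groups of 4. Cohort F held WT mice on placebo, *Bin1* mck-/- mice on placebo and *Bin1* mck-/- mice on tamoxifen. *Bin1* mck-/- mice lack *Bin1* in skeletal muscle, where the MCK promoter drives the deletion. Cohort G held WT and *Dnm2* S619L/+ mice, each on placebo or on tamoxifen. *Dnm2* S619L/+ mice carry a heterozygous knock-in of a point mutation, and both lines model centronuclear myopathy. Tamoxifen was given with the diet, and mice on it are called treated. Neither sex nor litter is stated in the labels.

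Estrogen receptors α (*Esr1*) and β (*Esr2*) are nuclear receptors that bind estrogens and then act on genes through estrogen response elements, whereas *Gper1* encodes a membrane receptor. Tamoxifen binds the nuclear receptors and acts as an antagonist in some tissues, such as breast, and as an agonist in others, such as bone and uterus. The progesterone receptor (*Pgr*), the coregulator *Greb1* and the corepressor *Nrip1* are classic estrogen-induced genes. The estrogen-related receptors α, β and γ (*Esrra*, *Esrrb* and *Esrrg*) resemble estrogen receptors but do not bind estrogens. In muscle they activate genes of mitochondrial energy metabolism together with coactivators of the PGC-1 family.

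The libraries held 24671835 to 35136327 reads on genes in cohort F and 15586333 to 109710886 in cohort G. Levels are given as CPM, the usual unit of reads on a gene relative to the size of the library, scaled with TMM factors within each cohort. Adjusted p-values come from edgeR unless another test is named, with calls under 0.05, and fold changes are log2 values with their standard error (SE). The 7 markers of muscle fibers summed to between 84346 and 179818 CPM in all mice, and the 5 markers of epithelium and skin to at most 1.04 CPM. *Xist*, the RNA of the inactive X chromosome, was at 70.6 to 116 CPM in all 12 mice of cohort F. In cohort G it was at 111 to 194 CPM in 10 mice and at no more than 0.983 CPM in 6 mice, which were mice 2 and 3 of the WT group, mice 3 and 4 of the treated WT group and mice 2 and 3 of the *Dnm2* S619L/+ group. A set of 6 bone genes (*Ibsp*, *Sp7*, *Dmp1*, *Mmp13*, *Alpl* and *Phex*) summed to 881 to 2082 CPM in the 4 treated WT mice, to 638, 1419 and 1590 CPM in treated *Dnm2* S619L/+ mice 1, 2 and 3, and to 583 CPM in treated *Bin1* mck-/- mouse 2. The same sum lay between 11.6 and 60.1 CPM in the remaining mice, including treated *Dnm2* S619L/+ mouse 4. The part of the bone genes in the results below was not tested.

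*Greb1* and *Pgr* were the targets among the 9 genes that differed most with tamoxifen in cohort G, so the letters before their start sites are shown first. The windows span the 250 bases before a RefSeq transcript start in GRCm38.p6, a build other than the mm39 used for the counts, and are printed 5′ to 3′ on the strand of the gene. Capitals mark GGTCA or its reverse complement TGACC, an arm of the estrogen response element.
Greb1, chr12:16800887-16801136, minus strand: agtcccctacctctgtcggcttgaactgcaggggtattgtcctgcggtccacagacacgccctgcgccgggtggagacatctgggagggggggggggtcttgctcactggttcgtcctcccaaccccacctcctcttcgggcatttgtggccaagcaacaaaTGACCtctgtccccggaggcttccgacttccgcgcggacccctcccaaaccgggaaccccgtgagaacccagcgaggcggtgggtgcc
Greb1, chr12:16757240-16757489, minus strand: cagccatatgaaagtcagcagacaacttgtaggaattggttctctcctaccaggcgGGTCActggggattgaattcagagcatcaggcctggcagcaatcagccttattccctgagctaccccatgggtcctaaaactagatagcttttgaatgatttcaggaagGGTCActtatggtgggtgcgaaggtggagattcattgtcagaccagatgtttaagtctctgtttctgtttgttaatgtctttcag
Pgr, chr9:8899583-8899832, plus strand: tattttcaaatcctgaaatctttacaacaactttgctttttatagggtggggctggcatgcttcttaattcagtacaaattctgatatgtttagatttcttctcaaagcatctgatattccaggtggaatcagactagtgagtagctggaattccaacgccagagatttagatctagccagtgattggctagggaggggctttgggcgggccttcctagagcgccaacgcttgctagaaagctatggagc
The *Greb1* windows held 3 such arms in all and the *Pgr* window held none. Over the 16 windows of the 9 genes, 5 windows held at least 1 arm, against 35.2% of the 32851 windows of the whole RefSeq set. The full palindrome, GGTCA and TGACC with 3 bases between them, was found in 0 of the 16 windows and in 0.0639% of all windows. The estrogen-related receptor element AAGGTCA, searched with TGACCTT, contains the GGTCA arm and was in 0 of the 16 windows and 4.08% of all windows. TGANTCA, the AP-1 element, was in 1 window of *Esrrg* and in 6.75% of all windows. A missing match says only that these letters are not in these windows.

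To compare levels between genes, CPM were divided by the exonic length of the gene in kilobases. *Esrra* led in both cohorts, with a median of 33.0 CPM per kb in cohort F and 19.6 in cohort G, above 93.9% and 90.7% of the genes tested. *Esrrg* followed at 3.26 and 4.07 CPM per kb, then *Nrip1* at 1.69 and 3.77. The place of *Nrip1* turned between groups, with a mean of 4.68 CPM per kb against 3.31 for *Esrrg* in treated WT mice of cohort G, and of 1.49 against 1.88 for *Esrrb* in WT mice of cohort F. The order of the next genes differed between the cohorts. *Esr1* stood at a median of 1.42 CPM per kb in cohort F and 1.68 in cohort G, *Esrrb* at 1.65 and 0.762, and *Gper1* at 1.2 and 0.890, and the ranges of these 3 genes over the mice overlapped in each cohort. *Greb1* was lower, at 0.279 and 0.305 CPM per kb. *Pgr* and *Esr2* were at the bottom with medians of 0 in cohort F and of 0.0227 and 0.00930 CPM per kb in cohort G. Placebo and treated mice were pooled for this order.

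**Figure D1:**
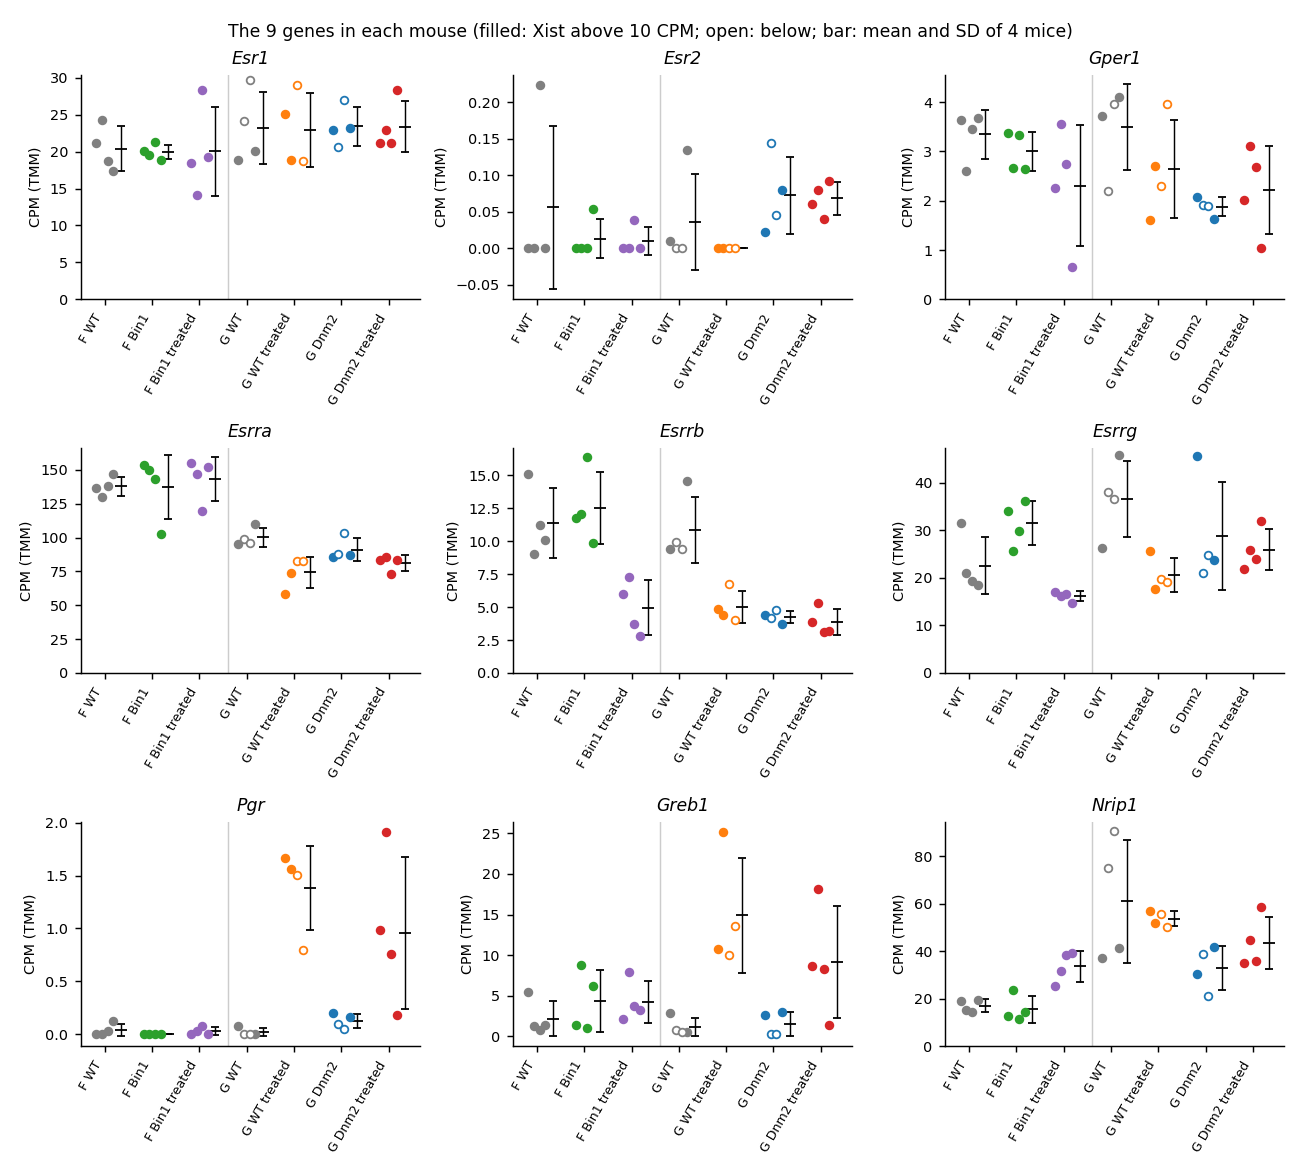
Level of each of the 9 genes in every mouse, in CPM scaled with TMM factors within each cohort, with a point per mouse and the mean ± SD of 4 mice beside each group. *Esr1* stayed between 14.1 and 29.6 CPM in all groups, whereas *Pgr* and *Greb1* were high in 7 of the 8 treated mice of cohort G and *Esrrb* was lower in the treated and *Dnm2* S619L/+ groups.

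*Esr1* was read in all 28 mice, with 375 to 1866 reads per library, and its level was nearly the same in every group. In cohort G the values were 18.9, 24.1, 29.6 and 20.1 CPM in WT mice, 25.1, 18.8, 29.0 and 18.7 CPM in treated WT mice, 22.9, 20.7, 27.0 and 23.2 CPM in *Dnm2* S619L/+ mice and 21.1, 23.0, 21.1 and 28.3 CPM in treated *Dnm2* S619L/+ mice. All 4 groups overlapped. Group means ranged from 22.9 to 23.4 CPM, with SDs between 2.64 and 5.07 CPM (n = 4). The log2 fold change of tamoxifen was -0.01 in WT mice (SE 0.17, adjusted p = 0.972) and -0.00287 in *Dnm2* S619L/+ mice (SE 0.17, adjusted p = 0.995). In cohort F the means were 20.4 ± 3.04 CPM in WT mice, 19.9 ± 1.0 in *Bin1* mck-/- mice and 20.0 ± 6.0 in treated *Bin1* mck-/- mice (SD, n = 4), and the log2 fold change of tamoxifen was 0.01 (SE 0.17, adjusted p = 0.987). The SEs bound a change of *Esr1* more tightly than that of *Greb1*, whose SEs ranged from 0.79 to 0.82 in the same comparisons. These p-values and all those below measure the spread between mice of these groups.

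*Esr2* was at the limit of detection. A total of 10 reads fell on it in cohort F, 7 of them in WT mouse 7, and 22 in cohort G, with at most 6 reads in a mouse. All 4 treated WT mice had 0 reads, which allows up to 0.0644 to 0.143 CPM in these mice (3 reads, counting error only). *Esr2* therefore did not pass the filter on low counts. None of its 7 comparisons between groups was called in exact two-sided permutation tests over mice (adjusted p = 0.857 to 1.0). The smallest p that 4 mice against 4 can give is 0.0286. Adjusted over the 10 tests of genes under the filter, that p in 1 comparison alone could not pass 0.05, so these tests could not decide.

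*Gper1*, the membrane receptor, was at 1.05 to 4.11 CPM in cohort G and 0.658 to 3.68 CPM in cohort F. WT mice of cohort G had 3.72, 2.21, 3.95 and 4.11 CPM and *Dnm2* S619L/+ mice had 2.07, 1.92, 1.90 and 1.62 CPM. The groups did not overlap, but the log2 fold change of -0.87 (SE 0.32) missed the threshold (adjusted p = 0.0571). The call was gained without treated *Dnm2* S619L/+ mouse 4 (adjusted p = 0.0246), WT mouse 2 (0.0439), or treated WT mouse 1 or 4 (0.0463 each), and was made by DESeq2 (0.0323) and with only the groups compared (0.0220). Endothelial markers moved in the same direction, with 4 of 5 called lower (*Vwf*, *Tek*, *Pecam1* and *Cdh5*), against 21.9% of all genes called and 9.81% called lower. Their sum was 350 to 671 CPM in WT and 161 to 434 CPM in *Dnm2* S619L/+ mice, and the part of these markers in the result was not tested. Tamoxifen gave adjusted p of 0.355 in WT, 0.705 in *Dnm2* S619L/+ and 0.579 in *Bin1* mck-/- mice for this gene.

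Among the targets, *Pgr* was close to absent from the muscle of WT mice on placebo and present in that of treated WT mice. Reads on *Pgr* numbered 8, 0, 0 and 0 in the WT mice of cohort G and 83, 52, 32 and 23 in the treated WT mice, or 0.0811, 0, 0 and 0 CPM against 1.67, 1.56, 1.51 and 0.794 CPM. Every treated mouse was above every placebo mouse. The log2 fold change of 3.99 (SE 0.77, adjusted p = 0.000443) was fitted with a prior count of 2, on which its size depends. *Pgr* passed the filter on low counts through the treated groups of cohort G, where it was high, so its place among the genes tested is no support by itself.

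*Greb1* was higher in treated WT mice as well. The values were 2.83, 0.736, 0.474 and 0.558 CPM in WT mice and 10.8, 25.2, 10.0 and 13.5 CPM in treated WT mice of cohort G. The groups lay far apart, with means of 1.15 ± 1.12 and 14.9 ± 7.03 CPM (SD, n = 4). This was a log2 fold change of 3.48 (SE 0.82, adjusted p = 0.00595). In the 2 mice of each group with high *Xist*, *Greb1* was at 0.558 to 2.83 CPM on placebo and 10.8 to 25.2 CPM on tamoxifen, and in the 2 with low *Xist* it was at 0.474 to 0.736 and 10.0 to 13.5 CPM. With only the mice of high *Xist* in the fit, a choice made after the counts were seen, the log2 fold change was 3.32 (adjusted p = 0.0716) for *Greb1* and 4.09 (adjusted p = 0.0278) for *Pgr*.

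In *Dnm2* S619L/+ mice the same genes were higher in 3 of 4 treated mice. *Greb1* was at 2.61, 0.240, 0.226 and 3.01 CPM on placebo and at 8.68, 18.2, 8.34 and 1.42 CPM on tamoxifen, so that treated mouse 4 lay within the placebo range. The log2 fold change of 2.48 (SE 0.81) missed the threshold (adjusted p = 0.0679), and passed it without that mouse (2.83, adjusted p = 0.0196) and with DESeq2 (2.59, adjusted p = 0.0356). *Pgr* was at 0.203, 0.0960, 0.0453 and 0.158 CPM on placebo and at 0.981, 1.91, 0.762 and 0.185 CPM on tamoxifen. Mouse 4 was again within the placebo range. The log2 fold change of *Pgr* was 2.39 (SE 0.69, adjusted p = 0.0243). This call was lost without placebo mouse 2 (adjusted p = 0.0706) or 4 (0.0514), without treated mouse 2 (0.101) or 3 (0.0581), and with *Xist* as a covariate (2.13, adjusted p = 0.0756). With only mice of high *Xist*, which were 2 on placebo and 4 on tamoxifen, the log2 fold changes were 2.12 for *Pgr* (adjusted p = 0.219) and 1.70 for *Greb1* (adjusted p = 0.403). The test of the difference between the tamoxifen effects in *Dnm2* S619L/+ and WT mice gave -1.60 for *Pgr* (SE 1.08, adjusted p = 0.362) and -1.01 for *Greb1* (SE 1.1, adjusted p = 0.750).

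The bone genes followed *Greb1* and *Pgr* across the mice of cohort G. Their sum was 29.8 to 57.7 CPM in WT, 881 to 2082 CPM in treated WT, and 11.6 to 19.9 CPM in *Dnm2* S619L/+ mice. In treated *Dnm2* S619L/+ mice it was 638, 1419, 1590 and 60.1 CPM, with mouse 4 the low one here too. The summed CPM of the 6 markers of fibroblasts moved in the same way, from 928 to 1264 CPM in WT to 8709 to 17092 CPM in treated WT mice. This sum stood at 6447, 10555, 13030 and 1997 CPM in the treated *Dnm2* S619L/+ mice. Taken singly, 4 of the 6 were called higher with tamoxifen in WT mice (median log2 fold change 1.26, 27.7% of all genes called). In *Dnm2* S619L/+ mice 2 of the 6 were called higher (median 0.19, 8.27% of all genes called). Of 6 leukocyte markers, 5 rose with tamoxifen in WT mice (median log2 fold change 1.84) and 0 were called in *Dnm2* S619L/+ mice. Whether the reads on *Greb1* and *Pgr* came from fibers, from other cells of the muscle or from tissue beside it was not tested, and in bulk muscle more cells of a type and more RNA per cell cannot be told apart.

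**Figure D2:**
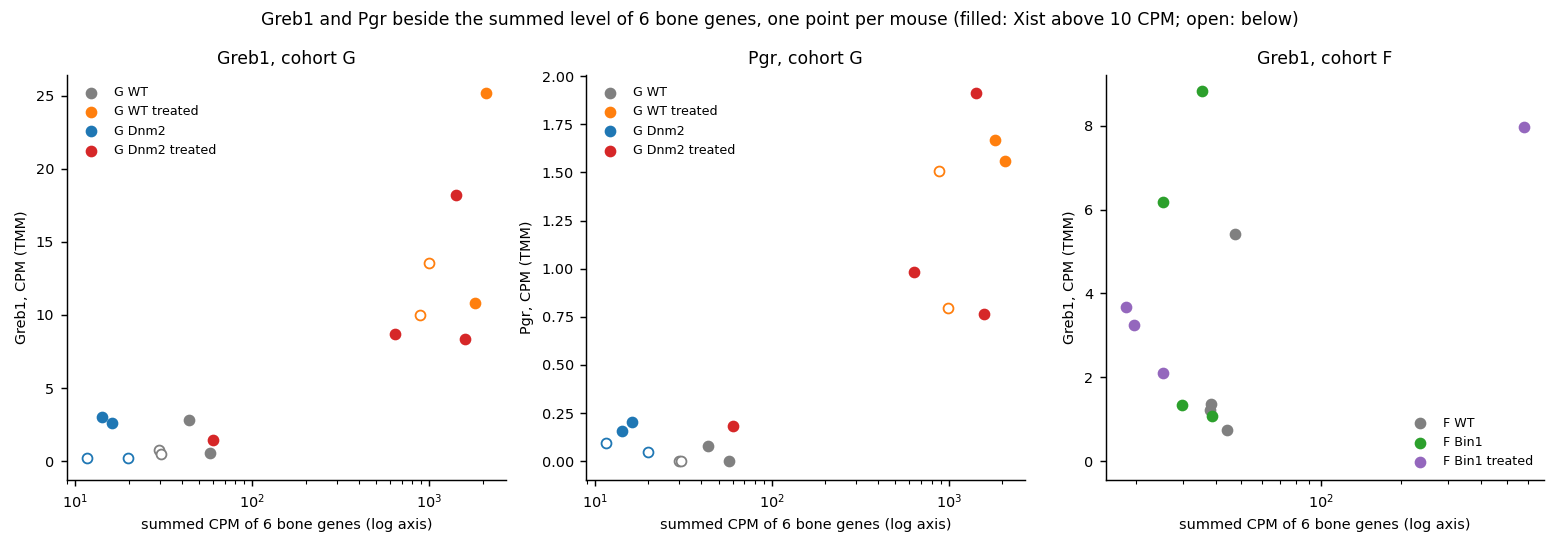
*Greb1* and *Pgr* in CPM, on a linear axis, against the summed CPM of 6 bone genes, on a log axis, with a point per mouse. In cohort G the mice with bone genes at 638 CPM or above were the 7 with *Greb1* at 8.34 CPM or above, while in cohort F *Bin1* mck-/- mice on placebo reached 8.82 CPM of *Greb1* with bone genes at 35.6 CPM.

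Cohort F differed from cohort G in these targets. *Pgr* had 0 reads in all 4 *Bin1* mck-/- mice on placebo, 0, 1, 2 and 0 reads in the treated ones and 0, 0, 1 and 4 reads in WT mice, and did not pass the filter on low counts. For *Pgr* in treated against placebo *Bin1* mck-/- mice, the exact two-sided permutation test gave an adjusted p of 0.857 over the 10 tests made of genes under the filter. Even full separation in 1 comparison alone could not have passed the threshold after this adjustment. *Greb1* varied widely within each group, at 5.42, 1.22, 0.736 and 1.36 CPM in WT mice, 1.33, 8.82, 1.08 and 6.18 CPM in *Bin1* mck-/- mice and 2.09, 7.98, 3.69 and 3.25 CPM in treated *Bin1* mck-/- mice. The 3 groups overlapped. For tamoxifen the log2 fold change was -0.03 (SE 0.79, adjusted p = 0.991), and that of *Bin1* mck-/- against WT mice was 0.96 (SE 0.81, adjusted p = 0.546). Leaving out WT mouse 5 moved the latter to 1.91, and leaving out placebo *Bin1* mck-/- mouse 2 moved it to 0.37. The bone genes were at 583 CPM in the treated mouse with the highest *Greb1*, but at 35.6 and 25.2 CPM in the placebo mice with 8.82 and 6.18 CPM. The effect of tamoxifen was not tested between the cohorts, whose protocols differed.

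*Nrip1*, the corepressor, did not follow *Pgr* and *Greb1*. In *Bin1* mck-/- mice it rose with tamoxifen, from 12.8, 23.7, 11.4 and 14.4 CPM on placebo to 25.3, 31.8, 38.4 and 39.3 CPM, without overlap. *Nrip1* thus changed by 1.11 on the log2 scale (SE 0.21, adjusted p = 0.0166). The call was lost without placebo mouse 1 (adjusted p = 0.0553) or 4 (0.0528), without treated mouse 3 (0.0551), and when only these groups were fitted (0.0574). Treated *Bin1* mck-/- mice were also above WT mice, which had 19.2, 15.3, 14.4 and 19.6 CPM, with a log2 fold change of 0.97 (SE 0.21) and an adjusted p of 0.0506. That comparison passed the threshold without placebo *Bin1* mck-/- mouse 2 (adjusted p = 0.0132) or 3 (0.0355) or treated mouse 1 (0.0380).

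Tamoxifen gave no call for *Nrip1* in cohort G, with log2 fold changes of -0.18 in WT (SE 0.27, adjusted p = 0.650) and 0.40 in *Dnm2* S619L/+ mice (SE 0.27, adjusted p = 0.374). On placebo it was lower in *Dnm2* S619L/+ mice, at 30.5, 38.7, 21 and 41.8 CPM, than in WT mice, at 37.3, 74.9, 90.4 and 41.4 CPM (a log2 fold change of -0.88, SE 0.27, adjusted p = 0.0315). The groups overlapped, and the 2 highest WT mice were those with low *Xist*. With only mice of high *Xist* in the fit the log2 fold change was -0.11 (adjusted p = 0.834). The call was also lost without WT mouse 2 (adjusted p = 0.106) or 3 (0.127) and without *Dnm2* S619L/+ mouse 1 (0.0649) or 3 (0.0679), with only the groups compared (0.0844) and with no filter (0.0864).

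*Esrrb* and *Esrrg* fell with tamoxifen in WT and in *Bin1* mck-/- mice, and *Esrra* in WT mice. In WT mice *Esrrb* fell from 9.41, 9.93, 9.41 and 14.6 CPM to 4.89, 4.41, 6.78 and 4.0 CPM (a log2 fold change of -1.11, SE 0.21, adjusted p = 0.00136). *Esrrg* fell from 26.2, 38.1, 36.5 and 45.8 CPM to 25.7, 17.6, 19.7 and 19.1 CPM (-0.83, SE 0.23, adjusted p = 0.0143). *Esrra* fell from 95.1, 99.2, 95.8 and 110 CPM to 58.3, 73.5, 82.9 and 82.5 CPM (-0.43, SE 0.11, adjusted p = 0.00956). None of the 3 genes overlapped between the groups, though *Esrrg* reached down to 26.2 CPM on placebo and up to 25.7 CPM on tamoxifen. The share of all genes without overlap was not counted, in this or any other comparison. The treated mice were those with bone genes at 881 to 2082 CPM. The call of *Esrrg* was lost without treated WT mouse 2 (adjusted p = 0.0506) and with only mice of high *Xist* (0.207), while those of *Esrrb* and *Esrra* held there (0.0289 and 0.0294). With *Pgr* and *Greb1*, 5 of the 8 genes tested were called in this comparison, 2 higher and 3 lower, against 27.7% of all genes (15.8% higher and 11.9% lower). *Pgr* passed the filter on low counts through the treated groups, where it was high, so its call adds no support to this count.

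In *Bin1* mck-/- mice *Esrrg* fell from 34.2, 25.7, 29.9 and 36.1 CPM on placebo to 17.1, 16.2, 16.6 and 14.8 CPM on tamoxifen (log2 fold change -0.96, SE 0.16, adjusted p = 0.00683). The 4 treated mice were the lowest of the cohort and close together. *Esrrb* fell from 11.8, 12.1, 16.4 and 9.85 CPM to 6.01, 7.31, 3.72 and 2.78 CPM (-1.32, SE 0.27, adjusted p = 0.0200), again without overlap, and this call was lost without treated mouse 3 (adjusted p = 0.0645) and when only these groups were fitted (0.0622). *Esrra* was at 153, 150, 143 and 102 CPM on placebo and 155, 147, 119 and 152 CPM on tamoxifen (0.06, SE 0.13, adjusted p = 0.822). Without treated mouse 2, the only mouse of the group with high bone genes, *Esrrb* changed by -1.58 (adjusted p = 0.00552), *Esrrg* by -0.96 (0.00842) and *Nrip1* by 1.14 (0.0152). Calls over all genes also rose without that mouse, from 464 to 1253. With all mice, and with *Nrip1*, 3 of the 7 genes tested were called in this comparison, 1 higher and 2 lower, against 3.13% of all genes (1.52% higher and 1.61% lower).

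In *Dnm2* S619L/+ mice tamoxifen gave no call for the estrogen-related receptors. *Pgr*, which passed the filter on low counts through the treated groups, was 1 called gene of the 8 tested, against 8.27% of all genes (5.22% higher and 3.05% lower). *Esrrb* was already low on placebo in *Dnm2* S619L/+ mice, at 4.42, 4.18, 4.80 and 3.72 CPM against 9.41 to 14.6 CPM in WT mice, a log2 fold change of -1.33 (SE 0.21, adjusted p = 0.000475). On tamoxifen it was at 3.89, 5.30, 3.13 and 3.18 CPM, a further log2 fold change of -0.14 (SE 0.21, adjusted p = 0.714). The test of the difference between the tamoxifen effects gave 0.97 for *Esrrb* (SE 0.29), which did not pass the threshold (adjusted p = 0.188), and 0 of the 8 genes were called in it, against 0.259% of all genes (0.0324% higher and 0.227% lower), with *Esrrb* and *Pgr* at unadjusted p of 0.00451 and 0.0470. DESeq2 gave 0 as well. *Esrrg* was at 45.6, 21.1, 24.8 and 23.7 CPM in *Dnm2* S619L/+ mice on placebo, where mouse 1 stood apart. Against WT mice its log2 fold change was -0.34 (SE 0.23, adjusted p = 0.291), and without that mouse -0.66 (adjusted p = 0.0224). *Esrrb* and *Nrip1* made 2 called genes of 8 between *Dnm2* S619L/+ and WT mice on placebo, both lower, against 21.9% of all genes (12.1% higher and 9.81% lower). *Pgr* was at 1.08 there (SE 0.93, adjusted p = 0.177) and was called without WT mouse 1 (1.60, adjusted p = 0.0429).

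Between *Bin1* mck-/- and WT mice on placebo, 0 of 7 genes were called by edgeR and by DESeq2, against 2.61% of all genes with edgeR (1.99% higher and 0.627% lower). Only *Esrrg* had an unadjusted p under 0.05 (0.00859), with 31.5, 21.1, 19.4 and 18.4 CPM in WT mice and a log2 fold change of 0.48 (SE 0.16, adjusted p = 0.110). Without WT mouse 5 this was 0.67 (adjusted p = 0.0285). *Esrrb* changed by 0.14 (SE 0.26, adjusted p = 0.822) and *Esrra* by -0.00698 (SE 0.13, adjusted p = 0.986). *Esrrb* thus was lower in *Dnm2* S619L/+ mice but was not called in *Bin1* mck-/- mice, a difference that was not tested across the cohorts.

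**Figure D3:**
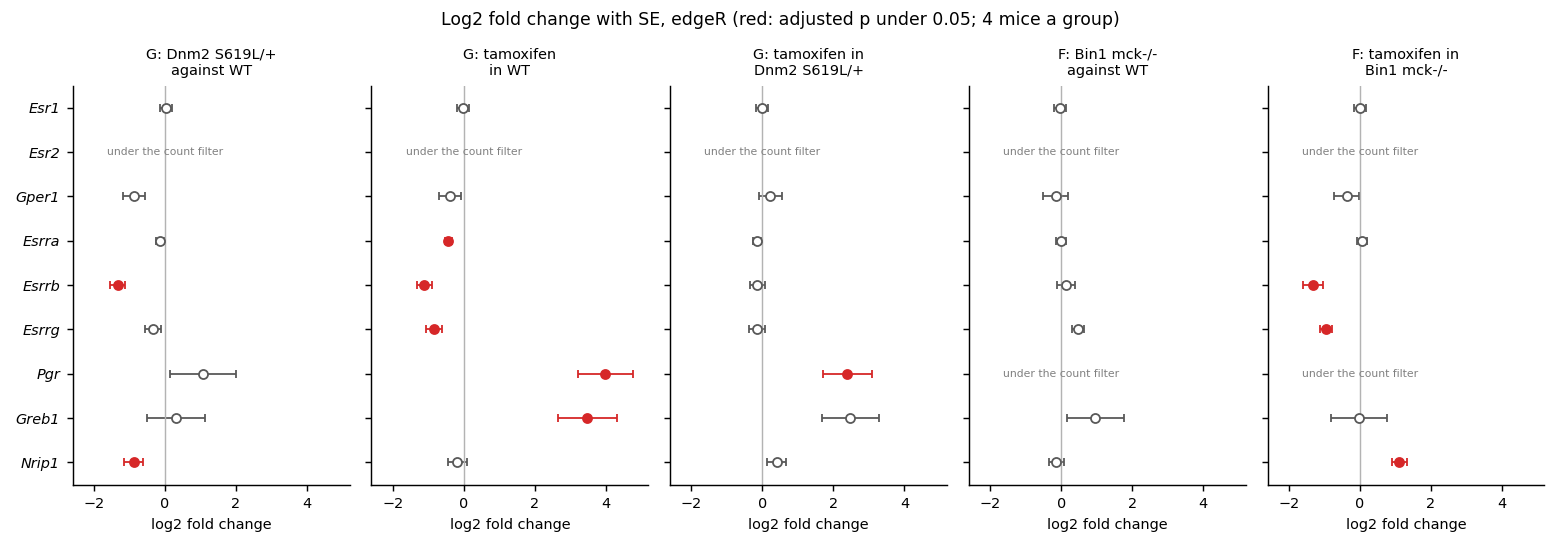
Log2 fold change with SE of each gene in 5 comparisons, from edgeR, with 4 mice a group and red marks for an adjusted p under 0.05. *Esrrb* lay below 0 in red in 3 panels, *Pgr* above 0 in red in both tamoxifen panels of cohort G, and *Esr1* at 0 in every panel.

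Treated disease mice were finally compared with WT mice on placebo, which shares mice with the comparisons above. In cohort G, 3 of 8 genes were called, against 28.9% of all genes (15.8% higher and 13.1% lower). *Pgr* was among the 3 and passed the filter on low counts through the treated groups. *Esrrb* was lower (log2 fold change -1.47, SE 0.21, adjusted p = 0.000281), and *Pgr* (3.47, SE 0.78, adjusted p = 0.000853) and *Greb1* (2.78, SE 0.81, adjusted p = 0.0173) were higher. The call of *Greb1* was lost without treated *Dnm2* S619L/+ mouse 2 (adjusted p = 0.0677), WT mouse 2 (0.0561) or WT mouse 3 (0.0503), with no filter (0.0659), with *Xist* as a covariate (2.18, adjusted p = 0.0594) and with only mice of high *Xist* (2.38, adjusted p = 0.158). *Esrra*, at -0.30 (SE 0.11, adjusted p = 0.0543), and *Esrrg*, at -0.50 (SE 0.23, adjusted p = 0.113), passed it without *Dnm2* S619L/+ mouse 3 (0.0470) and mouse 1 (0.0372), respectively, and *Esrra* without treated WT mouse 1 (0.0241), with DESeq2 (0.0431) and with only the groups compared (0.0440). In cohort F, 0 of 7 genes were called by edgeR, against 0.849% of all genes (0.465% higher and 0.384% lower), whereas DESeq2 called *Esrrb* (adjusted p = 0.00136) and *Nrip1* (0.00138), and *Esrrb*, *Esrrg* and *Nrip1* had unadjusted edgeR p of 0.000576, 0.00872 and 0.000439. *Esrrb* was at -1.19 (SE 0.27, adjusted p = 0.0563) and passed without placebo *Bin1* mck-/- mouse 3 (0.0423) or treated mouse 2 (0.0173).

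Between 6 and 9 of the 12 listed genes that estrogen-related receptors are known to activate were called lower in the 3 comparisons of cohort G where *Esrrb* was called lower. These 3 comparisons share the same 4 WT mice on placebo as the reference, so they are not separate observations. All 12 were tested, and in treated against placebo WT mice 9 fell and 0 rose, with a median log2 fold change of -0.44, against 27.7% called and a median of -0.04 over all genes. *Ckmt2*, the mitochondrial creatine kinase, fell from 2733 ± 230 to 1272 ± 156 CPM (a log2 fold change of -1.1, SE 0.14, adjusted p = 0.000250). *Fabp3*, a fatty acid carrier, fell by 1.12 on the log2 scale (SE 0.24, adjusted p = 0.00343), *Acadm*, which oxidizes medium-chain fatty acids, fell by 0.61 (SE 0.11, adjusted p = 0.000896), and citrate synthase (*Cs*) fell by 0.48 (SE 0.12, adjusted p = 0.00751). In *Dnm2* S619L/+ against WT mice 6 of 12 were lower and 0 higher (median -0.41, against 0.02 and 21.9% called over all genes), among them *Acadm*, *Ckmt2* and *Cpt1b*, which imports fatty acids into mitochondria. In treated *Dnm2* S619L/+ against WT mice 7 of 12 were lower, against 28.9% of all genes, and *Idh3a*, of the citric acid cycle, was among the 4 with the smallest adjusted p. With only mice of high *Xist* these counts were 3, 2 and 2. Leaving out a mouse gave 5 to 9 targets for tamoxifen in WT mice, with 5 without WT mouse 2 or treated WT mouse 2, and 3 to 7 for *Dnm2* S619L/+ against WT mice, with 3 without WT mouse 2. For treated *Dnm2* S619L/+ against WT mice it gave 4 to 8, with 4 without WT mouse 2 or 3 or treated *Dnm2* S619L/+ mouse 2, and *Xist* as a covariate also gave 4. Other features of the muscle differed in the same comparisons. The treated WT mice were those with bone genes at 881 to 2082 CPM. Reads of mitochondrial genes made up 19.6 to 25.7% of the library in WT mice, 16.5 to 19.0% in treated WT mice and 13.6 to 17.1% in *Dnm2* S619L/+ mice on placebo. All 7 markers of slow and oxidative fibers were called between *Dnm2* S619L/+ and WT mice on placebo, 5 higher and 2 lower (*Myh2* and *Myl3*), with a median log2 fold change of 2.02. Their sum, in which abundant genes weigh most, went the other way, at 1324 to 3135 CPM in WT and 319 to 1019 CPM in *Dnm2* S619L/+ mice. Of 6 leukocyte markers, 3 were higher in that comparison and 5 with tamoxifen in WT mice. The part of these features in the result was not tested. No target was called by edgeR with tamoxifen in *Dnm2* S619L/+ mice (median -0.04), in *Bin1* mck-/- mice (median -0.05) or between *Bin1* mck-/- and WT mice (median -0.00189). The share of all genes called in these comparisons was 8.27%, 3.13% and 2.61%, respectively. With tamoxifen in *Bin1* mck-/- mice, *Esrrb* (-1.32) and *Esrrg* (-0.96) were both called lower, so lower receptors went there with 0 of 12 targets called.

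Of the 4 coactivators, *Perm1*, which is enriched in muscle and works with PGC-1α, was called most often. Its level fell from 519 ± 106 to 279 ± 26.6 CPM with tamoxifen in WT mice (log2 fold change -0.90, SE 0.19, adjusted p = 0.00299) and from 457 ± 88.5 to 301 ± 49.4 CPM in *Bin1* mck-/- mice (-0.60, SE 0.15, adjusted p = 0.0443). It was lower in *Dnm2* S619L/+ mice on placebo (269 ± 80.8 CPM, -0.95, SE 0.19, adjusted p = 0.00272), and tamoxifen gave no call there (-0.08, SE 0.19, adjusted p = 0.822). *Ppargc1a*, which encodes PGC-1α, was lower in *Dnm2* S619L/+ than in WT mice on placebo (-1.59, SE 0.48, adjusted p = 0.0279), where the WT mice varied widely (94.0 ± 72.1 CPM). *Ppargc1b* and *Pprc1* were called by edgeR in 0 of the 8 comparisons. None of the 7 fiber markers was called by edgeR with tamoxifen in any line. Of all genes, 27.7% were called in WT, 8.27% in *Dnm2* S619L/+ and 3.13% in *Bin1* mck-/- mice. The median log2 fold change of the fiber markers was -0.41, -0.12 and 0.45, respectively. Their sum was 122972 to 150384 CPM in WT and 95514 to 108125 CPM in treated WT mice, and its part in these results was not tested.

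**Figure D4:**
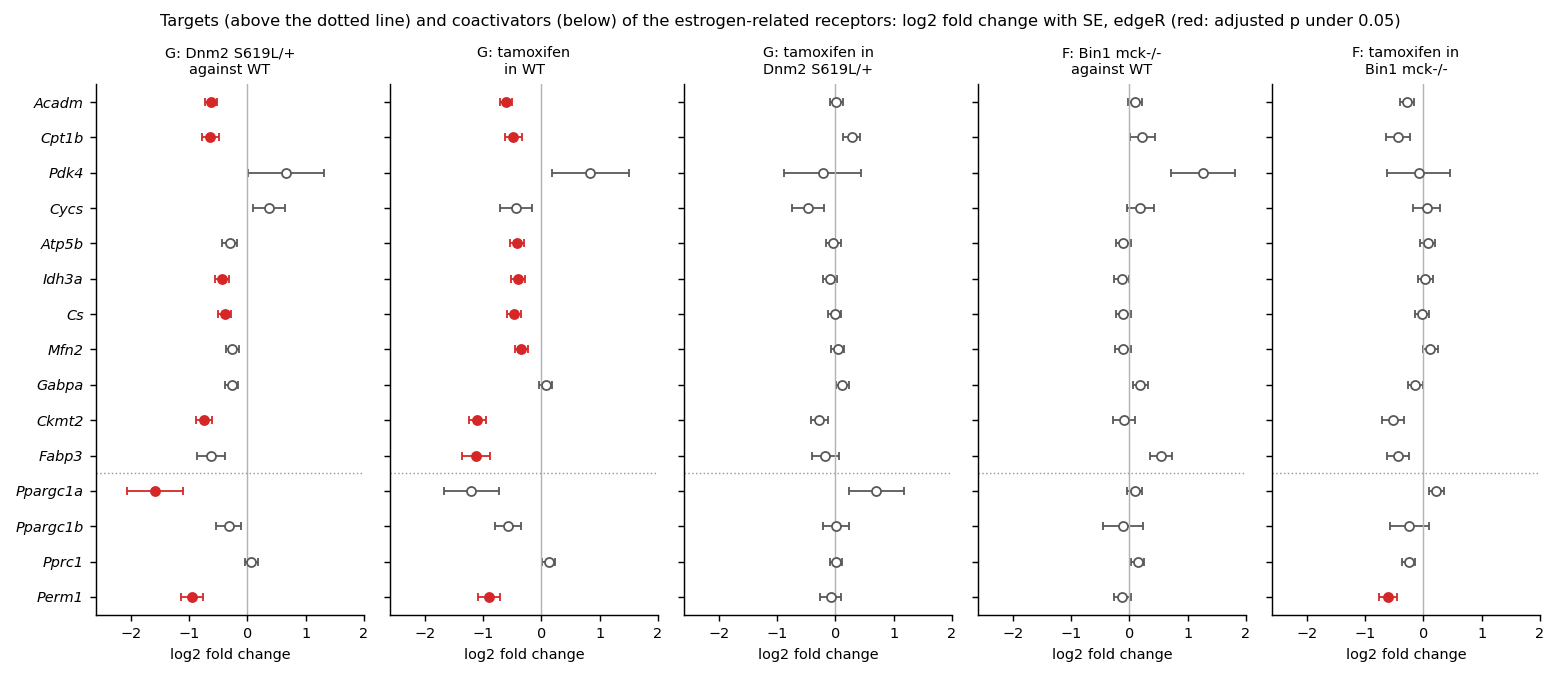
Log2 fold change with SE of 11 of the 12 listed targets and of the 4 coactivators of the estrogen-related receptors in 5 comparisons, from edgeR, with red marks for an adjusted p under 0.05. Red marks lie to the left of 0 in every panel that has any, with 8 of the targets drawn in the panel of tamoxifen in WT mice and 0 in that of tamoxifen in *Dnm2* S619L/+ mice.

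Other genes known to be induced by estrogen gave a mixed picture. Of 20 listed, 16 were tested, and with tamoxifen 4 rose and 1 fell in WT mice (27.7% of all genes called), 2 rose in *Dnm2* S619L/+ mice (8.27%) and 1 fell in *Bin1* mck-/- mice (3.13%). *Igf1*, a growth factor made by many cell types, rose from 18.7 ± 3.65 to 186 ± 57.9 CPM in WT mice (log2 fold change 3.31, SE 0.61, adjusted p = 0.00150) and from 17.5 ± 9.65 to 150 ± 105 CPM in *Dnm2* S619L/+ mice (3.10, SE 0.61, adjusted p = 0.00824). Its binding protein *Igfbp4* rose by 1.68 (SE 0.26, adjusted p = 0.000479) and 1.58 (SE 0.25, adjusted p = 0.00339) on the log2 scale. *Xbp1*, a factor of the secretory pathway, and *Muc1* also rose in WT mice, by 0.66 (adjusted p = 0.000914) and 0.91 (adjusted p = 0.0120). Bone cells and fibroblasts are known to express *Igf1* and *Igfbp4*, and the summed markers of both are given above. Of the 6 fibroblast markers, 4 were called higher with tamoxifen in WT mice and 2 in *Dnm2* S619L/+ mice. The part of these cells in the rises of *Igf1* and *Igfbp4* was not tested. The gene that fell in *Bin1* mck-/- mice was *Rara*, a retinoic acid receptor, from 28.3 ± 6.21 to 14.1 ± 2.30 CPM (-1.01, SE 0.17, adjusted p = 0.00702). Between *Dnm2* S619L/+ and WT mice on placebo, 2 of the 16 were higher, *Xbp1* (0.54) and *Fos* (2.12), and 3 were lower, among them *Bcl2* (-0.99) and *Vegfa* (-0.68), all as log2 fold changes, or 5 of 16 against 21.9% of all genes. That count ranged from 1 to 6 when a mouse was left out, at 3 or fewer without WT mouse 1, 2 or 4 or *Dnm2* S619L/+ mouse 1, 2 or 4, and was 2 with no filter and 1 with only the groups compared. With only mice of high *Xist*, 3 of these genes rose and 2 fell in WT mice and 0 were called in *Dnm2* S619L/+ mice, where only the groups compared gave 0 as well and leaving out placebo mouse 3 gave 4.

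With tamoxifen in WT mice, 2 of 14 tested coregulators of the estrogen receptor and 2 of 4 tested genes of estrogen synthesis and inactivation were called, against 27.7% of all genes, and in *Dnm2* S619L/+ mice 1 of 14 and 0 of 4, against 8.27%. Of the coregulators, *Ddx17*, an RNA helicase, rose in WT (0.32, SE 0.11, adjusted p = 0.0396) and in *Dnm2* S619L/+ mice (0.37, SE 0.11, adjusted p = 0.0495), and *Carm1*, an arginine methyltransferase, fell in WT mice (-0.40, SE 0.14, adjusted p = 0.0438). On placebo, the corepressor *Ncor1*, the acetyltransferase *Ep300* and the coactivators *Ncoa3* and *Ncoa1* were lower in *Dnm2* S619L/+ than in WT mice, with log2 fold changes between -0.56 and -0.51, or 4 of 14 against 21.9% of all genes. Among the 4 tested genes of estrogen synthesis and inactivation, *Cyp1b1*, which hydroxylates estrogens, rose in treated WT mice from 1.17 ± 0.242 to 8.05 ± 3.33 CPM (2.72, SE 0.59, adjusted p = 0.00350) and *Hsd17b4* fell (-0.39, SE 0.11, adjusted p = 0.0145). Of the 4 other proteins that bind tamoxifen, *Ebp*, a sterol isomerase, rose in WT mice (0.46, SE 0.17, adjusted p = 0.0496). The glucocorticoid receptor (*Nr3c1*) was lower in *Dnm2* S619L/+ than in WT mice on placebo, with a log2 fold change of -0.52, and was not called with tamoxifen. In cohort F none of the genes of these 4 lists was called by edgeR. Few genes of any kind were called there. The share was 2.61% for *Bin1* mck-/- against WT mice, 3.13% for tamoxifen in *Bin1* mck-/- mice and 0.849% for treated *Bin1* mck-/- against WT mice. Under the alternatives, up to 3 coregulators were called lower in *Bin1* mck-/- against WT mice. Up to 1 tamoxifen-binding protein was called lower with tamoxifen in *Bin1* mck-/- mice.

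Finally, the genes whose pattern over the 28 mice was most like that of each receptor or target were listed, with log2 CPM centred on the mean of the cohort and 11225 genes compared. This is a description, in which points share library, depth and treatment. For *Esrrb* they were *Acot11* (Pearson r = 0.90), *Lrrc27* (0.87) and *Perm1* (0.87), and after centring on the group mean these values were 0.57, 0.68 and 0.58. For *Esrra* they were *Ptges2* (0.91), the malate dehydrogenase gene *Mdh2* (0.90) and *Mcrip2* (0.90), which stayed between 0.84 and 0.87 within groups. *Greb1* was most like *Il17ra* (0.90), *B4galt1* (0.90) and *Acap2* (0.88), and *Esrrg* was like *Pacsin2* (0.77) and *Fam13a* (0.76). *Gper1* was most like *Slco2b1* (0.82), *Notch3* (0.77) and *Bmp4* (0.77). *Esr1* was most like *Ogfod1* (0.79), *Prkca* (0.73) and *Kmt2c* (0.72), and *Nrip1* like *Spns2* (0.86), *Sf3b1* (0.81) and *Hnrnpa1* (0.80).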

How the data were processed

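Poly-A RNA of the TA muscle was sequenced from stranded libraries, made from 300 ng of RNA with 2 minutes of fragmentation in cohort G and from 350 ng with 8 minutes in cohort F. The authors deposited a table of raw read counts per gene for each cohort. Per the labels and the submitters' processing notes, the tools were bcl2fastq 2.20.0.422, cutadapt 1.10, Bowtie 1.2.2, STAR 2.5.3 and HTSeq 0.6.1p1, with genome build mm39. In cohort F, 4 lines naming no gene (median 23.9% of reads) were left out. Symbols and exonic lengths came from GENCODE M21, which named 52083 of 55359 and 55416 identifiers, and promoter windows from RefSeq.

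Each cohort was fitted with all its groups in edgeR 4.0.16 (R 4.3.3, limma 3.58.1), with TMM scaling, the default filter (minimum count 10), robust quasi-likelihood tests, a prior count of 2 and Benjamini-Hochberg adjustment over all genes tested, called under 0.05. The SE is the size of the fold change without the prior count divided by the square root of F. Genes under the filter were compared by exact two-sided permutation tests of CPM. DESeq2 1.42.0 was an alternative. The scripts were tested on simulated data.

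All 9 genes were named in full. Of each other list, at most the 4 called genes with the smallest adjusted p were named, as were the 3 genes most like each receptor or target with a mean log2 CPM above 1. A few genes that this rule names are not reported here, though counts over the lists include them. The genes and lists were chosen with earlier results of these data known. Mice were grouped by their labels, and p-values measure the spread between mice. Intervals from counts of 0 cover counting error only.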

Additional observations from a re-analysis of the deposited data

Results flagged for a closer look

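Among 61 groups of 4 mice tested for a mouse that stood far from the others, 10 held one, where chance alone flags about 5% of groups. In 5 of them the gene had 8 reads or fewer. The share of 5% does not hold for such counts, since even 1 read is flagged when the other mice have 0. *Esr2* had 2 reads (0.0533 CPM) in *Bin1* mck-/- mouse 4, 1 read (0.0388 CPM) in treated *Bin1* mck-/- mouse 3 and 7 reads (0.224 CPM) in WT mouse 7, each against 0 in the rest of its group. In cohort G, *Esr2* had 6 reads (0.134 CPM) in WT mouse 4, against 0 to 0.0101 CPM. *Pgr* had 8 reads (0.0811 CPM) in WT mouse 1, the most deeply sequenced library, against 0 in the other WT mice of cohort G.

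The rest concerned genes with more reads. *Greb1* was at 2.83 CPM in WT mouse 1 of cohort G, against 0.474 to 0.736 CPM, and at 5.42 CPM in WT mouse 5 of cohort F, against 0.736 to 1.36 CPM. *Esrrb* was at 14.6 CPM in WT mouse 4 of cohort G, against 9.41 to 9.93 CPM. In the *Dnm2* S619L/+ group on placebo, *Esrrg* was at 45.6 CPM in mouse 1, against 21.1 to 24.8 CPM, and *Esrra* at 104 CPM in mouse 3, against 85.7 to 87.7 CPM. What set these mice apart was not tested.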

How the results depend on the processing

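Of the values of single receptors and targets under all alternatives, 1262 kept their direction and side of the threshold, 68 changed sign, 31 lost a call and 24 gained one. No called value changed sign. The alternatives were DESeq2, RLE scaling, no filter, the study's filter on low counts, only the groups compared, the replicate block, *Xist* as a covariate, library sizes without mitochondrial reads and leaving out each mouse. Keeping only mice of high *Xist* in cohort G was added after the data were seen, and leaves 2 mice in 3 of the groups. The study's filter removes *Pgr* and *Greb1* from cohort G. The cause of the changes below was not tested, except that fewer mice or genes entered where the setting removes them. For *Dnm2* S619L/+ against WT mice on placebo, the receptors and targets called numbered 1 with no filter, the replicate block or only mice of high *Xist* and 1 to 3 when a mouse was left out. Calls over all genes numbered 1124 with only mice of high *Xist* and 2034 (without WT mouse 2) to 3953 (without treated *Dnm2* S619L/+ mouse 4) when a mouse was left out. The sign for *Dnm2* S619L/+ against WT mice on placebo turned for *Esr1* at -0.0653 to 0.178 when a mouse was left out, and for *Greb1* at -0.147 to 1.30 when a mouse was left out. For tamoxifen in WT mice, the receptors and targets called numbered 3 with the study's filter or only mice of high *Xist*. All genes called numbered 2231 with only mice of high *Xist* and 2769 (without treated WT mouse 2) to 4825 (without treated *Dnm2* S619L/+ mouse 4) when a mouse was left out. Fold changes for tamoxifen in WT mice turned sign for *Esr1* at 0.0256 with the study's filter or *Xist* as a covariate, 0.0153 with only the groups compared, 0.187 with only mice of high *Xist* and -0.143 to 0.130 when a mouse was left out, and for *Nrip1* at 0.477 with only mice of high *Xist* and -0.359 to 0.0740 when a mouse was left out. For tamoxifen in *Dnm2* S619L/+ mice, the receptors and targets called numbered 2 with DESeq2, 0 with the study's filter, only the groups compared, *Xist* as a covariate or only mice of high *Xist* and 0 to 2 when a mouse was left out. Calls over all genes numbered 814 with no filter, 30 with only the groups compared, 843 with the replicate block, 478 with *Xist* as a covariate, 79 with only mice of high *Xist* and 368 (without treated *Dnm2* S619L/+ mouse 3) to 2562 (without treated *Dnm2* S619L/+ mouse 4) when a mouse was left out. The sign for tamoxifen in *Dnm2* S619L/+ mice turned for *Esr1* at 0.00857 with DESeq2, 0.00732 with RLE scaling, 0.00141 with no filter, 0.0130 with the study's filter, 0.0367 with only the groups compared, 0.0116 with the replicate block, 0.107 with *Xist* as a covariate, 0.0444 with only mice of high *Xist* and -0.109 to 0.0724 when a mouse was left out, and for *Esrrg* at -0.275 to 0.164 when a mouse was left out. The CPM difference for tamoxifen in *Dnm2* S619L/+ mice was for *Esr2* -0.0210 to 0.0195 when a mouse was left out. For the difference between the tamoxifen effects, all genes called numbered 322 with DESeq2, 20 with RLE scaling, 16 with the study's filter, 10 with the replicate block, 126 with *Xist* as a covariate and 1 (without treated WT mouse 1) to 293 (without *Dnm2* S619L/+ mouse 3) when a mouse was left out. Fold changes for the difference between the tamoxifen effects turned sign for *Esr1* at -0.0126 with the study's filter, -0.143 with only mice of high *Xist* and -0.143 to 0.141 when a mouse was left out, and for *Nrip1* at -0.181 with only mice of high *Xist*. For treated *Dnm2* S619L/+ against WT mice, the receptors and targets called numbered 1 with the study's filter. All genes called numbered 2936 with *Xist* as a covariate, 1099 with only mice of high *Xist* and 2955 (without treated *Dnm2* S619L/+ mouse 3) to 5497 (without treated *Dnm2* S619L/+ mouse 4) when a mouse was left out. The sign for treated *Dnm2* S619L/+ against WT mice turned for *Esr1* at -0.0851 to 0.165 when a mouse was left out, and for *Nrip1* at 0.184 with only mice of high *Xist*. For *Bin1* mck-/- against WT mice on placebo, the receptors and targets called numbered 0 to 1 when a mouse was left out. Calls over all genes numbered 1149 with DESeq2, 1458 with only the groups compared, 46 with *Xist* as a covariate and 18 (without WT mouse 8) to 759 (without treated *Bin1* mck-/- mouse 2) when a mouse was left out. Fold changes for *Bin1* mck-/- against WT mice on placebo turned sign for *Esr1* at 0.0860 with *Xist* as a covariate and -0.103 to 0.0601 when a mouse was left out, and for *Esrra* at 0.000303 with the study's filter, 0.0763 with *Xist* as a covariate and -0.0742 to 0.103 when a mouse was left out, and for *Esrrb* at -0.0279 to 0.296 when a mouse was left out, and for *Greb1* at -0.166 with *Xist* as a covariate. The CPM difference for *Bin1* mck-/- against WT mice on placebo was for *Esr2* -0.0613 to 0.0133 when a mouse was left out. For tamoxifen in *Bin1* mck-/- mice, the receptors and targets called numbered 1 with only the groups compared or the replicate block and 1 to 3 when a mouse was left out. All genes called numbered 1166 with DESeq2, 122 with only the groups compared, 152 with the replicate block and 160 (without treated *Bin1* mck-/- mouse 3) to 1253 (without treated *Bin1* mck-/- mouse 2) when a mouse was left out. Fold changes for tamoxifen in *Bin1* mck-/- mice turned sign for *Esr1* at -9.1e-05 with no filter, -0.0338 with the replicate block and -0.207 to 0.146 when a mouse was left out, and for *Esrra* at -0.0547 to 0.142 when a mouse was left out, and for *Greb1* at 0.275 with the replicate block, 0.0999 with *Xist* as a covariate and -0.515 to 0.559 when a mouse was left out. The CPM difference for tamoxifen in *Bin1* mck-/- mice was for *Esr2* -0.0133 to 0.00970 when a mouse was left out. For treated *Bin1* mck-/- against WT mice, the receptors and targets called numbered 2 with DESeq2, 1 with only the groups compared and 0 to 2 when a mouse was left out. Calls over all genes numbered 521 with DESeq2, 210 with no filter, 31 with *Xist* as a covariate and 42 (without WT mouse 5) to 266 (without treated *Bin1* mck-/- mouse 3) when a mouse was left out. Fold changes for treated *Bin1* mck-/- against WT mice turned sign for *Esr1* at 0.0862 with *Xist* as a covariate and -0.241 to 0.106 when a mouse was left out, and for *Greb1* at -0.0661 with *Xist* as a covariate. The CPM difference for treated *Bin1* mck-/- against WT mice was for *Esr2* -0.0650 to 0.00970 when a mouse was left out, and for *Pgr* -0.0280 to 0.0163 when a mouse was left out. Same-numbered mice correlated at -0.175 to 0.149 in cohort F (4 pairs, 1 over 0.1) and -0.325 to 0.335 in cohort G (24 pairs, 9 over 0.1), so the replicate numbers were not taken to pair the mice. With the replicate block, *Nrip1* had an adjusted p of 0.0530 in *Dnm2* S619L/+ against WT mice, and *Esrrb* (0.0507) and *Nrip1* (0.0545) missed the threshold with tamoxifen in *Bin1* mck-/- mice. WT mice of cohort F share no number with the other groups, so no block was possible there, and the difference between the tamoxifen effects needs all 4 groups of cohort G. *Esr2* in both cohorts and *Pgr* in cohort F had too few reads for the filter on low counts. The median depth was 30657895.5 reads on genes in cohort F and 28832003 in cohort G.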
